A study of Mus musculus with 9 samples.

Results

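To describe the type 2 cytokine genes of the mouse lung during IL-33-driven inflammation, the genes *Il4*, *Il5*, *Il13*, *Il9*, *Il6*, *Il10*, *Csf2* and *Tslp* were taken by name from the expression table. These are 8 of the 34638 genes it lists, and all 8 were found. IL-4, IL-5, IL-13 and IL-9 are the classical type 2 cytokines, made mainly by T helper 2 cells and group 2 innate lymphoid cells (ILC2s). IL-33, an alarmin released by damaged barrier cells, acts on the receptor ST2 (*Il1rl1*), whose signal runs through the adaptor MyD88 and makes ILC2s and mast cells secrete such cytokines. IL-6, IL-10 and GM-CSF (*Csf2*) are made by many cells in the same setting, and TSLP is, like IL-33 itself, an epithelial alarmin.

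Lung RNA came from 9 wild-type C57BL/6 mice, 3 in each of 3 groups. PBS mice were challenged with phosphate buffered saline, and IL-33 mice with recombinant mouse IL-33 at 0.5 µg into the trachea on days 0, 1, 2 and 3. IL-33+LM8 mice had the same IL-33 challenges and, before challenge, an intraperitoneal injection of LM8 at 10 mg/kg, a compound labelled as a MyD88 inhibitor. The study's methods describe its IL-33 model in females of 6 to 8 weeks, given 25 µL of IL-33 solution or PBS and sampled on day 4. For the IL-33+LM8 mice the sources used here give neither age, sex, volume nor day of sampling, and whether the other groups were injected with solvent is not given either. Total counts on genes were 61767006 to 73869252 in PBS, 53877663 to 66029783 in IL-33 and 59753648 to 90607218 in IL-33+LM8 mice.

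Levels are given as FPKM, fragments per kilobase of gene length relative to all fragments on genes. Differences are log2 fold changes of the counts with their standard error (SE), from edgeR's quasi-likelihood test on the 3 mice of each group. A gene was tested when its mean count over the 9 mice was at least 10, and called when its Benjamini-Hochberg adjusted p over all genes tested was under 0.05 and its log2 fold change reached 1 in size, the minimum fold change. Beside it, an exact two-sided permutation test compared the mean log2 FPKM of 3 mice with 3. Its smallest possible p is 0.1, so it cannot pass 0.05. *Il9* failed the count minimum and the other 7 genes passed. *Il5*, *Il13* and *Il10* averaged under the minimum in PBS mice and passed through the challenged groups, so a difference in these genes was bound up with their being tested. In whole lung, more cells of a type and more RNA per cell cannot be told apart.

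In IL-33 mice compared with PBS mice, 3 of the 7 genes tested were called, *Il13*, *Il6* and *Il5*, all of them higher. Over all 21519 genes tested, 9.94% were called higher and 5.83% lower. In IL-33+LM8 mice compared with IL-33 mice, *Il6* alone was called, and it was lower, where 1.32% of all 21520 genes were called higher and 3.48% lower. In IL-33+LM8 mice compared with PBS mice the 3 genes *Il13*, *Il5* and *Il6* were called higher, against a background of 5.2% higher and 1.67% lower among 21518 genes. The genes called lower there numbered 359, and 207 to 574 with single mice left out. The comparisons share groups of mice, so they do not support each other. Over all genes tested the median log2 fold change was -0.01, -0.01 and 0.00 in these comparisons.

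**Figure D1:**
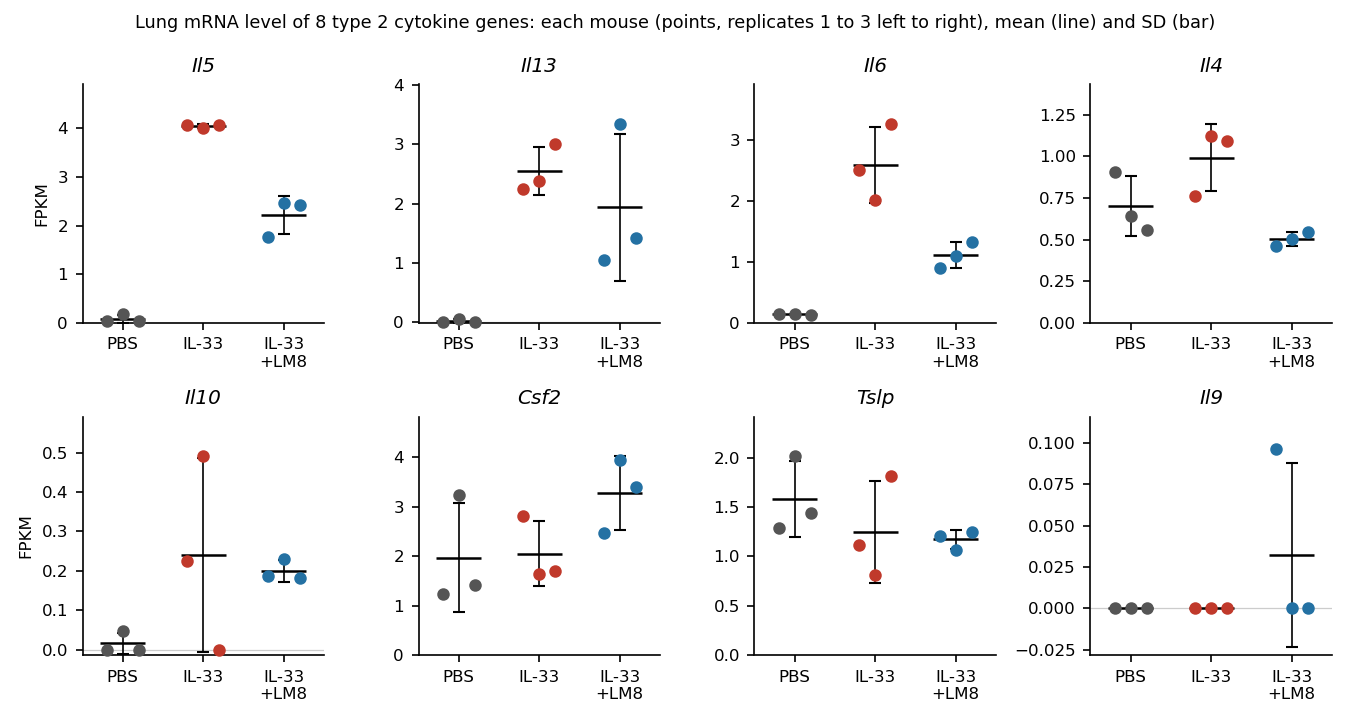
FPKM of the 8 genes in PBS, IL-33 and IL-33+LM8 mice, 1 panel per gene with its own vertical axis starting at or just below 0, points for single mice, a line for the group mean and a bar for the SD (n = 3). *Il5*, *Il13* and *Il6* were near 0 in PBS mice and at 2.03 FPKM or more in every IL-33 mouse, while the groups of *Csf2* overlapped.

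*Il5* encodes the cytokine that drives the growth and survival of eosinophils. Its level was 0.0365, 0.172 and 0.0337 FPKM in the 3 PBS mice, 4.07, 4.01 and 4.07 FPKM in the IL-33 mice and 1.75, 2.47 and 2.42 FPKM in the IL-33+LM8 mice. The 3 groups did not overlap, and the IL-33 mice lay closer together than those of either other group. IL-33 mice exceeded PBS mice by a log2 fold change of 5.59 (SE 0.63, edgeR adjusted p = 0.000381), a ratio of mean FPKM of 50.2. All 3 IL-33 mice were above all PBS mice, and the exact permutation p was 0.1. The PBS side of this ratio rested on 26 counts, 18 of them in replicate 2, without which the log2 fold change was 6.73. With LM8, *Il5* was still above PBS by 4.75 (SE 0.65, edgeR adjusted p = 0.00276), and by 4.35 to 5.91 with single mice left out. Against IL-33 mice the value was -0.86 (SE 0.18, edgeR adjusted p = 0.014), with all 3 IL-33+LM8 mice under all 3 IL-33 mice, but short of the minimum fold change, so it was not called. Over the alternatives its adjusted p ran from 0.000285 to 0.221, the highest in the fit of all 9 mice.

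*Il13*, which acts on airway epithelium to cause mucus production, was at 0 counts in PBS replicates 1 and 3 and at 4 counts in replicate 2. A count of 0 there allowed up to 0.0382 FPKM in replicate 1 and 0.0322 in replicate 3, the level of 3 counts. IL-33 mice had 2.24, 2.39 and 3.00 FPKM, from 185, 181 and 204 counts. Every IL-33 mouse was far above every PBS mouse, at a log2 fold change of 7.16 (SE 0.97, edgeR adjusted p = 0.000941). The edgeR 95% interval of this log2 fold change ran from 4.87 to 9.45. Since PBS mice held so few counts, the ratio of pooled count rates is given beside it. It was 157, with an exact 95% interval from 60.9 to 578 that covers counting error and leaves out variation between mice. Small counts in the table were often multiples of 4. If 4 counts stood for 1 fragment, the interval would run from 27.6 to 6218. IL-33+LM8 mice had 1.04, 3.34 and 1.42 FPKM, so that replicate 2 stood above every IL-33 mouse and the other mice under all of them. The log2 fold change was 6.81 (SE 1.08, edgeR adjusted p = 0.00518) against PBS and -0.38 (SE 0.43, edgeR adjusted p = 0.615) against IL-33. Without IL-33+LM8 replicate 2 the latter was -1.03, past both thresholds (edgeR adjusted p = 0.048, range over alternatives 0.048 to 0.929), so 1 mouse decided this call. Without PBS replicate 2 the fitted values were 10.66 for IL-33 and 10.43 for IL-33+LM8 against PBS. Both remaining PBS mice were then at 0, and these values are not bounds.

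*Il4* encodes the cytokine that directs T helper 2 differentiation and IgE switching. It was measured at 0.904, 0.643 and 0.556 FPKM in PBS, 0.760, 1.12 and 1.09 in IL-33 and 0.460, 0.504 and 0.542 in IL-33+LM8 mice, each from 36 to 87 counts. PBS and IL-33 mice overlapped, and the log2 fold change was 0.50 (SE 0.33, edgeR adjusted p = 0.274, exact permutation p = 0.2). IL-33+LM8 mice were under all mice of both other groups. Their difference from IL-33 mice was -0.96 (SE 0.31, edgeR adjusted p = 0.0692) and was not called, and that from PBS mice was -0.44 (SE 0.33, edgeR adjusted p = 0.395).

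*Il9*, a mast cell growth factor, had a count in 1 mouse, 4 counts or 0.0964 FPKM in IL-33+LM8 replicate 1. The other 8 mice were at 0, which allows up to 0.0802 FPKM in the shallowest library. No difference in *Il9* was detectable at this depth.

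*Il6*, a pleiotropic inflammatory cytokine, was at 0.141, 0.150 and 0.127 FPKM in PBS mice, 2.51, 2.03 and 3.27 in IL-33 mice and 0.909, 1.10 and 1.33 in IL-33+LM8 mice. The 3 groups were apart, with IL-33+LM8 mice between the others. IL-33 raised *Il6* by 4.16 on the log2 scale (SE 0.27, edgeR adjusted p = 3.1e-05), or 18.6 times in mean FPKM. With LM8 it fell by 1.21 from the IL-33 level (SE 0.23, edgeR adjusted p = 0.0112), a ratio of 0.427. Its level with LM8 was 2.97 above PBS (SE 0.28, edgeR adjusted p = 0.000596), and the exact permutation p was 0.1 in each of the 3 comparisons. In limma on log2(FPKM + 1), which compresses low levels, the difference from IL-33 mice was -0.76 and that from PBS mice 0.88, both under the minimum fold change.

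*Il10*, a regulatory cytokine, was the lowest of the genes tested. PBS mice held 0, 4 and 0 counts, IL-33 mice 21, 41 and 0, and IL-33+LM8 mice 16, 20 and 23. IL-33 replicate 3, at 0 counts (up to 0.0398 FPKM), overlapped the PBS mice, while all IL-33+LM8 mice were above all PBS mice. The ratio of pooled count rates to PBS was 17.1 for IL-33 (exact 95% interval 6.34 to 64.6, counting error only) and 13.7 for IL-33+LM8 (5.09 to 52.1). If 4 counts stood for 1 fragment, the intervals would run from 2.74 to 739 and from 2.15 to 588. *Il10* was not called, at 3.89 (SE 1.73, edgeR adjusted p = 0.114) for IL-33 and 3.69 (SE 1.15, edgeR adjusted p = 0.0604) for IL-33+LM8 against PBS. For IL-33 it was called without IL-33 replicate 3 alone among the alternatives (4.47, edgeR adjusted p = 0.0474, range over alternatives 0.0474 to 0.292). With single mice left out its log2 fold change ran from 2.87 to 7.41, the latter without PBS replicate 2, where both PBS mice left were at 0 and the value is not a bound. For IL-33+LM8 it was called in 3 alternatives (adjusted p from edgeR or limma 0.0103 to 0.144 over the alternatives). These were limma on log2(FPKM + 0.1) at 1.39, counts divided by 4 at 3.43, and the fit without PBS replicate 2 at 7.31, which is not a bound either. Between IL-33+LM8 and IL-33 mice the value was -0.24 (SE 1.11), and its sign changed with the mouse left out.

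*Csf2*, which encodes the myeloid growth factor GM-CSF, was at 1.24, 3.23 and 1.42 FPKM in PBS mice, the highest mean of the 8 genes there through replicate 2, while *Tslp* was above it in the other mice. IL-33 mice had 2.81, 1.64 and 1.69 FPKM and IL-33+LM8 mice 2.46, 3.94 and 3.40 FPKM. All pairs of groups overlapped, and PBS replicate 2 and IL-33 replicate 1 were above the lowest IL-33+LM8 mouse. The log2 fold change was 0.08 (SE 0.44, 95% interval -0.96 to 1.12) for IL-33 against PBS, and leaving out 1 mouse could turn its sign. It was 0.68 (SE 0.31, edgeR adjusted p = 0.179) for IL-33+LM8 against IL-33 and 0.77 (SE 0.41, edgeR adjusted p = 0.224) against PBS. Without PBS replicate 2 the last value was 1.32, past both thresholds (edgeR adjusted p = 0.0392, range over alternatives 0.0392 to 0.458).

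*Tslp* was at 1.28, 2.01 and 1.44 FPKM in PBS, 1.11, 0.815 and 1.82 in IL-33 and 1.21, 1.06 and 1.25 in IL-33+LM8 mice. The mice of the IL-33 group enclosed those of the IL-33+LM8 group, which in turn lay below all PBS mice. None of the 3 differences was called: -0.32 (SE 0.36) for IL-33 against PBS, -0.08 (SE 0.34) for IL-33+LM8 against IL-33 and -0.38 (SE 0.25) for IL-33+LM8 against PBS, with edgeR adjusted p of 0.533, 0.906 and 0.325.

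The order of levels changed between groups. In PBS mice *Csf2* (1.96 ± 1.10 FPKM, SD, n = 3) and *Tslp* (1.58 ± 0.385) led and overlapped, *Il4* followed at 0.701 ± 0.181 with no overlap with its neighbours, and *Il6*, *Il5*, *Il13* and *Il10* lay at or under a mean of 0.139. In IL-33 mice *Il5* led at 4.05 ± 0.0341, above all mice of *Il6* (2.60 ± 0.624). *Il6*, *Il13* (2.54 ± 0.405), *Csf2* (2.05 ± 0.659), *Tslp* (1.25 ± 0.514) and *Il4* (0.991 ± 0.201) each overlapped the next in that order. In IL-33+LM8 mice *Csf2* had the highest mean (3.26 ± 0.747) and overlapped *Il5* (2.21 ± 0.399), which overlapped *Il13* (1.93 ± 1.24). *Tslp* (1.17 ± 0.0991) and *Il6* (1.11 ± 0.210) came next, each overlapping its neighbour. *Il4* (0.502 ± 0.0414) and *Il10* (0.199 ± 0.0271) followed, apart from each other and from the rest.

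The share of the IL-33 rise that was left with LM8 was computed for the 3 genes called in IL-33 mice, as the excess of mean FPKM over PBS in IL-33+LM8 mice divided by that in IL-33 mice. It was 39.5% ± 13.2 for *Il6*, 53.8% ± 10.1 for *Il5* and 75.9% ± 50.4 for *Il13* (SD propagated from the 3 groups, n = 3 each). By mouse, the share ran from 31.3% to 48.3% for *Il6*, from 42.2% to 60.3% for *Il5* and from 40.5% to 132% for *Il13*. The 3 genes overlapped in this measure, and the difference between them was not tested. Without IL-33+LM8 replicate 2 the share for *Il13* was 48.0%.

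*Il4*, *Il13*, *Il5* and *Csf2* lie together on chromosome 11, in the type 2 cytokine locus and its flank. In the coordinates of the table, whose build it does not name, *Il4* (ENSMUSG00000000869) spans 53493809 to 53509496 and *Il13* (ENSMUSG00000020383) 53522151 to 53525529, both on the minus strand and 12654 bases apart. *Il5* (ENSMUSG00000036117) spans 53611621 to 53615933 on the plus strand, 86091 bases further, with *Rad50*, a DNA repair gene, between them. *Csf2* (ENSMUSG00000018916), at 54138097 to 54140493 on the minus strand, is 522163 bases beyond *Il5*. *Il6* (ENSMUSG00000025746) is on chromosome 5, *Il10* (ENSMUSG00000016529) on 1, *Il9* (ENSMUSG00000021538) on 13 and *Tslp* (ENSMUSG00000024379) on 18. *Il4* was not called although it is the closest neighbour of *Il13*. Between the called genes *Il13* and *Il5*, *Rad50* had a log2 fold change of 0.18 (SE 0.07) in IL-33 against PBS. In that comparison 9.94% of all genes tested were called higher and 5.83% lower. Of 13 neighbours tested, 1 was called higher in IL-33 mice, *Pdlim4* at 1.36 (SE 0.16), and 1 lower, *Slc22a5*, a carnitine transporter, at -1.06 (SE 0.08). In limma on log2(FPKM + 1) both of these calls were lost. With LM8 edgeR called 0 of the 13, where 6 against IL-33 and 9 against PBS had an unadjusted p under 0.05, and DESeq2 and the fit without PBS replicate 3 each called 1 against PBS. The neighbours' median log2 fold change was -0.33, 0.03 and -0.32 in the 3 comparisons, and the most abundant of them was *Irf1*. Antisense lncRNAs overlap *Il5* (*Gm12214*, at most 2 counts in a mouse) and *Csf2* (*Gm12223*, at most 11). Whether counting used strand is not given in the sources used here, so some counts of these pairs cannot be told apart.

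**Figure D2:**
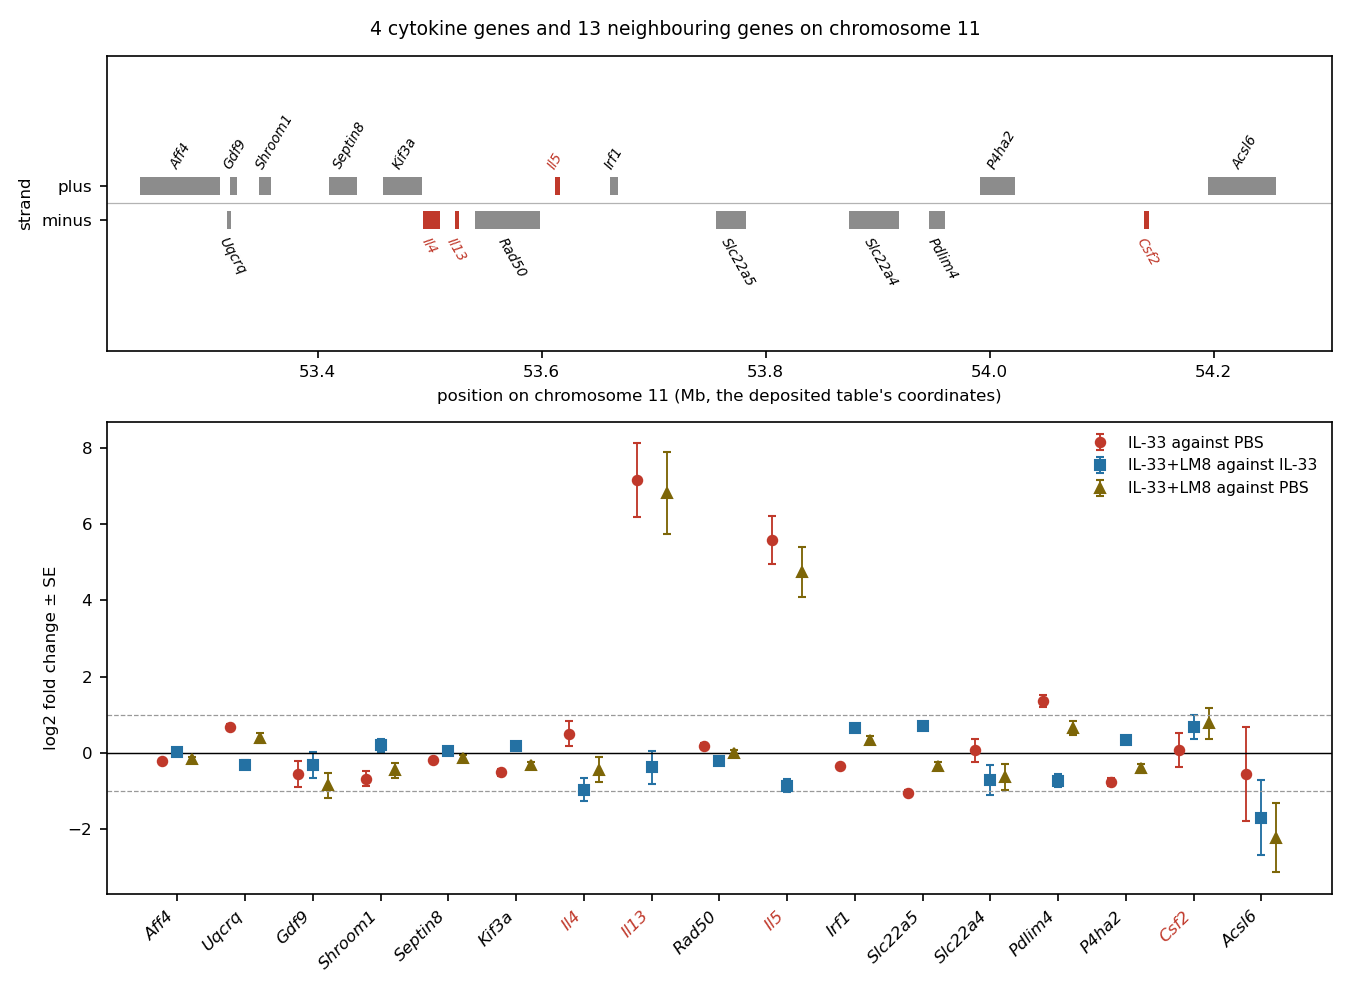
Upper panel, positions of *Il4*, *Il13*, *Il5* and *Csf2* (red) and 13 neighbours (grey) on chromosome 11 in megabases, by strand. Lower panel, log2 fold change with its SE for each gene, in genomic order, in 3 comparisons, with dashed lines at the minimum of 1. *Il13* and *Il5* stand at 7.16 and 5.59 for IL-33 against PBS, with *Rad50* between them at 0.18.

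Promoter sequences of RefSeq (GRCm38.p6) were at hand for 6 of the 8 genes, *Il4* with 2 starts. They are shown for *Il5*, *Il13* and *Il6*, called together in both comparisons with PBS, and for the upstream start of *Il4*, the uncalled neighbour. Each is the 250 bases before the start, 5′ to 3′ on the gene's strand, with matches to the motifs in capitals. The windows are chr11:53720544-53720793 (plus strand) for *Il5*, chr11:53634703-53634952 (minus) for *Il13*, chr11:53618666-53618915 (minus) for *Il4* and chr5:30012864-30013113 (plus) for *Il6*. The motifs were searched on both strands. Those for GATA factors were AGATAA and, as a separate motif of the same family, TGATAA. The motif for NFAT was GGAAAA and that for STAT factors TTCNNNGAA. The motif for AP-1 was TGAGTCA and that for NF-kB was GGGNNTTTC.
Il5: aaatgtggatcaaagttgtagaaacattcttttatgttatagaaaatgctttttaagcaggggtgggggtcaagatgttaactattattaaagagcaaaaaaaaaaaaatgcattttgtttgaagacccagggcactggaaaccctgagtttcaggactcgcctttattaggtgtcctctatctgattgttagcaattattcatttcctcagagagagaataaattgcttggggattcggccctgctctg
Il13: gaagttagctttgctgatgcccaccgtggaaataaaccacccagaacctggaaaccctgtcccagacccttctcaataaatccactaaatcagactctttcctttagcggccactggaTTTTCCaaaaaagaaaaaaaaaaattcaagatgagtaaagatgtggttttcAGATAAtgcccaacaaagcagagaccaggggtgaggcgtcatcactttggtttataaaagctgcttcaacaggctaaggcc
Il4: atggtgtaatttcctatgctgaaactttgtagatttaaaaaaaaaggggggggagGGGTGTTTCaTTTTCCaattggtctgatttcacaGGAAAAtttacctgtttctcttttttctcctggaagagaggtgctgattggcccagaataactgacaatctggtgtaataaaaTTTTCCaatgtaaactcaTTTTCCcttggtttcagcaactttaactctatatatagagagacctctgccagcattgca
Il6: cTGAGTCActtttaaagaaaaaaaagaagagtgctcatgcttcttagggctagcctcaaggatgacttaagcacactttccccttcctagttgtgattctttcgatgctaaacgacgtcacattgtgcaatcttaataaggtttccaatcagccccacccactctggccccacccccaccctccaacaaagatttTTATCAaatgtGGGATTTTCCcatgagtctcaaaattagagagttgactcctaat
The *Il5* window held none of these exact letters, and other forms of sites for the same factors were not searched. *Il13* had 1 GATA match (AGATAA, in 9.99% of all 32851 promoter windows) and 1 NFAT match (20.4% of windows). The *Il4* window shown had 4 NFAT matches and 1 for NF-kB (3.72% of windows), and the window of its other start had 0 matches to the 6 motifs. *Il6* had 1 match to TGATAA, found in 7.94% of windows. It also had 1 match each for NFAT, AP-1 (4.46% of windows) and NF-kB, of which the first and last overlapped. No match to TTCNNNGAA, present in 7.02% of windows, fell in any window of the 6 genes. STAT sites of other spacing were not searched. The bases after the *Csf2* start were not found in a transcript, so the strand and start of its window are unchecked. Matches to these letters differed between genes that were called together, and they are a description of letters only.

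The genes whose profile over the 9 mice was most like each cytokine were found by the root mean square difference of centred log2 values. For *Il5* the closest was *Pdcd1*, which encodes the receptor PD-1 (0.224 log2 units). For *Il13* it was *Tnfrsf8*, which encodes CD30 (0.240), followed by *Fxyd4* (0.321) and *Chia1* (0.359). For *Il6* it was *Il1rl1*, the IL-33 receptor gene (0.150), whose mean FPKM was 0.966, 14.4 and 5.54 in PBS, IL-33 and IL-33+LM8 mice. *Tnfrsf8* was also second for *Il5* (0.374), with *Saa3* next (0.379). The nearest to *Il4* was *Rims3* (0.148), to *Csf2* *Prcd* (0.239), to *Tslp* *Gm15027* (0.150) and to *Il10* *Gm35037* (0.452), the latter at few counts.

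Among 15 receptor genes of these cytokines, edgeR called 10 in IL-33 mice, all higher (median log2 fold change 1.96). With LM8, 5 were called against IL-33, all lower (median -0.57), and 6 against PBS, all higher (median 0.88). These counts were 4 to 5 and 5 to 7 with single mice left out. *Csf2rb2* was not called against IL-33 without IL-33 replicate 1 or IL-33+LM8 replicate 2 or 3 (-0.977 to -0.997). *Csf2ra* was not called against PBS without PBS replicate 1 (0.93) or IL-33+LM8 replicate 3 (0.95). In limma on log2(FPKM + 1), *Csf2rb2* (-0.94) and *Il5ra* (-0.79) against IL-33 and *Csf2ra* (0.99) against PBS were not called. *Il13ra2*, the decoy receptor of IL-13, was at 0 counts in all PBS mice and in IL-33 mice higher by at least 111-fold, taking 3 counts in each PBS library. The IL-9 receptor *Il9r* rose by 4.40 (SE 0.14) in IL-33 mice, where *Il9* itself was not detectable at this depth, and with LM8 was at -1.79 (SE 0.12) against IL-33. *Il5ra* was at -1.53 (SE 0.21) in that comparison. *Il6st*, the shared IL-6 receptor chain, was the most abundant, at a mean of 40.4, 42.0 and 59.2 FPKM in PBS, IL-33 and IL-33+LM8 mice.

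Of 17 genes that signal for or switch on these cytokines, 7 were called in IL-33 mice, all higher (median 0.63). With LM8, 2 were lower than in IL-33 mice (median -0.12; 1 to 3 called with single mice left out) and 4 higher than in PBS mice (median 0.77). *Il1rl1* rose by 3.90 in IL-33 mice (SE 0.12) and fell by 1.37 with LM8 (SE 0.11), and the transcription factor gene *Irf4* rose by 2.95 in IL-33 mice (SE 0.12). The other gene called with LM8, *Bcl11b*, stood at the minimum fold change, and was not called without IL-33 replicate 3 (-0.84) or IL-33+LM8 replicate 2 (-0.87). Nor was it called with all mice kept in the replicate block, the fit of all 9 mice, without the count minimum or in limma with either pseudocount, at -0.63 to -0.998. *Stat6* was the most abundant, at a mean of 42.5, 37.9 and 41.3 FPKM in the 3 groups.

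Of 18 genes known as targets of IL-4 and IL-13, 16 were higher in IL-33 mice (median 5.30) and 15 with LM8 against PBS (median 4.38), while 7 were lower with LM8 than with IL-33 (median -0.76). In IL-33 mice *Ccl24*, an eosinophil chemokine gene, rose by 8.09 (SE 0.26) and *Retnla*, the most abundant of these, by 7.28 (SE 0.28). Of 10 genes known to respond to IL-6 and IL-10 through STAT3, 4 were higher in IL-33 mice (median 1.60), 4 with LM8 against PBS (median 1.61), and 1 was called between IL-33+LM8 and IL-33 mice (median 0.15; 1 to 2 with single mice left out, 2 without IL-33+LM8 replicate 2). That gene was *Il1rn*, the IL-1 receptor antagonist, at -1.55 (SE 0.07), and the most abundant, *Hp*, was not called.

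Of 13 other cytokine genes measured, 9 were tested, and in IL-33 mice 3 were higher and 1 lower (median 0.92). *Il33* itself, the most abundant, rose by 2.82 (SE 0.10) and *Il18* fell by 1.75 (SE 0.24). With LM8, 2 were higher than in IL-33 mice (median 0.20), *Il1b* at 1.15 (SE 0.09) and *Tnf* at 1.35 (SE 0.21). *Tnf* was not called in the fit of all 9 mice, at 1.37 (edgeR adjusted p = 0.0526, range over alternatives 7.32e-06 to 0.0526), nor with limma on log2(FPKM + 1), at 0.70. Against PBS 4 were higher and 1 lower (median 0.50). *Lif* among them (edgeR adjusted p = 0.0296, range over alternatives 0.00159 to 0.0998) was not called in 5 of the 6 fits with a single mouse left out, all but that without PBS replicate 2, nor with limma or a minimum mean FPKM of 0.5.

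Markers of cells that make or answer these cytokines also differed between the groups, and their part in the results above was not tested. Of 9 ILC2 markers, 7 were higher in IL-33 mice (median 3.14), 4 lower with LM8 than with IL-33 (median -0.99) and 7 higher with LM8 than in PBS mice (median 2.13). T cell markers, led by *Trac*, had a summed FPKM of 20.0, 19.7 and 20.8 in PBS, 32.2, 28.2 and 31.0 in IL-33 and 31.2, 23.8 and 26.9 in IL-33+LM8 mice. Of these 7, edgeR called 0 in each comparison, where 5, 3 and 3 had an unadjusted p under 0.05 (medians 0.65, -0.20 and 0.37). In IL-33 against PBS, 1 was called with RLE factors, in DESeq2, in the replicate block and without PBS replicate 2, PBS replicate 3 or IL-33 replicate 2. Mast cell and basophil markers, led by *Hdc*, summed to 11.5 ± 0.741, 32.6 ± 3.60 and 20.9 ± 0.770 (mean and SD, n = 3). Of the 7 tested, 2 were higher in IL-33 mice and 1 with LM8 against PBS (medians 0.96, 0.26 and 1.17). *Tpsab1*, at 0 in PBS mice, was the marker not tested. In IL-33 mice *Tpsb2* (2.91, SE 0.97, edgeR adjusted p = 0.0471, range over alternatives 0.00352 to 0.117) was not called without PBS replicate 1, PBS replicate 2 or any single IL-33 mouse. The log2 fold change in those fits was 2.77 to 3.76. *Tpsb2* was also not called in the replicate block, the fit of all 9 mice or without the count minimum (2.90 to 3.20), or with limma on log2(FPKM + 1) (0.29). With LM8 *Hdc* was not called without PBS replicate 2 (0.98) or IL-33+LM8 replicate 1 (0.94), nor in limma with either pseudocount (0.91 and 0.98).

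Eosinophil markers, led by *Ear1*, summed to 22.6, 26.2 and 22.0 in PBS, 61.4, 64.9 and 65.1 in IL-33 and 14.8, 16.0 and 15.6 in IL-33+LM8 mice. Of the 8, 7 were higher in IL-33 mice, all 8 were lower with LM8 than with IL-33 (median -2.30), and 4 were higher and 1 lower with LM8 than in PBS mice. The last count, 5 in all, was 3 without IL-33+LM8 replicate 2, where *Ccr3* (edgeR adjusted p = 0.0861, range over alternatives 1.92e-05 to 0.0861) and *Cebpe* (0.0587, range 1.3e-06 to 0.0587) were not called. *Ccr3* was also not called without PBS replicate 1 or either other IL-33+LM8 mouse, at 3.53 to 4.01. In limma on log2(FPKM + 1), *Ccr3* (0.64) and *Epx* (0.21) against PBS and *Epx* (-0.85) against IL-33 were short of the minimum fold change. Against IL-33, *Ear6* was not called in the fit of all 9 mice, at -2.30 (edgeR adjusted p = 0.0756). *Epx*, eosinophil peroxidase, was at 0 in all PBS mice and in IL-33 mice higher by at least 67.8-fold (3 counts in each PBS library). The bound for IL-33+LM8 mice was 9.86-fold. With *Epx* at these bounds the medians were 6.32 in IL-33 and 3.48 in IL-33+LM8 against PBS, and 6.58 and 3.95 as fitted. Neutrophil markers, led by *S100a9*, summed to 35.0, 32.7 and 27.7 in PBS, 188, 214 and 201 in IL-33 and 1006, 863 and 878 in IL-33+LM8 mice. Of these 8, 6 were higher in IL-33 mice, 6 with LM8 against IL-33 and 8 against PBS (medians 1.88, 2.22 and 4.66).

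Macrophage and monocyte markers (most abundant *Cd68*) summed to 100.2, 89.7 and 94.2 in PBS, 290.0, 303 and 301 in IL-33 and 160.0, 166 and 158 in IL-33+LM8 mice, with 5 of 8 higher and 1 lower in IL-33 mice. B cell markers (*Cd79b*) summed to 33.0, 41.9 and 33.5, to 129.6, 153 and 117 and to 88.7, 77.0 and 76.4, with 5 of 5 higher in IL-33 mice and, with LM8, against PBS, the latter 2 without IL-33+LM8 replicate 1. Fibroblast markers (*Col3a1*) summed to 226, 176 and 201, to 517, 557 and 484 and to 181, 236 and 202, with 3 of 5 higher and 1 lower in IL-33 mice and 3 lower with LM8 than with IL-33. Epithelial markers (*Scgb1a1*) summed to 33309, 33988 and 31182, to 13405, 14597 and 14281 and to 26094, 27974 and 25781, with 2 of 7 lower in IL-33 mice. The 8 defining genes of lung, led by the same gene, were present in every mouse and summed to 36621, 37247 and 34322, to 15573, 16762 and 16522 and to 29261, 31345 and 28937, with 4 lower in IL-33 mice. With LM8 against IL-33, 1 macrophage marker was higher and 2 lower and 1 lung gene was higher (0 to 2 with single mice left out), and against PBS 4 macrophage markers were higher. In the comparisons with LM8 not named above, edgeR called 0 genes of these lists, or 0 to 1 epithelial marker against IL-33 with single mice left out. There, unadjusted p under 0.05 was met against IL-33 by 5 B cell, 4 epithelial and 2 mast cell and basophil markers. Against PBS it was met by 5 epithelial, 2 fibroblast and 8 lung genes, and DESeq2 and limma called 0 of any of these lists there. In the order IL-33 against PBS, IL-33+LM8 against IL-33 and IL-33+LM8 against PBS, median log2 fold changes were 1.90, -0.85 and 1.08 for B cell, -0.12, -0.07 and -0.17 for epithelial and -0.99, 0.63 and -0.30 for lung genes. They were 1.42, -0.68 and 1.005 for macrophage and 1.498, -1.39 and 0.13 for fibroblast markers.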

How the data were processed

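Lung RNA of 9 mice was sequenced in paired ends, and group and replicate were taken from the labels. Per the submitters' processing notes, the tools were Bowtie 0.12.2, HISAT2 2.0 and StringTie 1.3.0 and the build mm10. Yet only 640 of 32643 genes shared with GENCODE M21 (GRCm38) had the same start, so the table's coordinates are given without a build. The authors deposited 1 table with FPKM and estimated counts per gene, whole numbers in every cell; 281 entries share a symbol.

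Counts were tested with edgeR 4.0.16 (R 4.3.3, TMM factors, glmQLFit and glmQLFTest), 6 mice per comparison, over genes with a mean count of at least 10 and a count above 0 in the 6. The SE is the log2 fold change divided by the square root of F. The study's methods name no test for these libraries. The tools were also tested on simulated data. DESeq2 1.42.0, limma 3.58.1, other filters and thresholds, a replicate block, single mice left out and counts divided by 4, the last chosen after seeing the data, were alternatives. Likeness used TMM-scaled CPM with 0.1 added, permutation tests FPKM with 0.1 added (scipy 1.17.1).

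Intervals and floors (3 counts) cover counting error only, since no molecular identifiers are described. Of counts from 1 to 24, 30.9% were multiples of 4, where 25% would be even, so what 1 count stands for is uncertain. Within groups, variance between libraries was 21.7 times sampling noise or more, so no library had the counts of another in its group, and each was taken as 1 mouse from the labels. Samples with the same number in PBS and IL-33+LM8 deviated together (correlations 0.28 to 0.593), while those with different numbers correlated at -0.423 to 0.223. PBS replicate 1 correlated at 0.280 with IL-33+LM8 replicate 1 and at 0.223 with replicate 2, so pairs were not established. The labels used here name no pairs either, and the main tests took the mice as unpaired. Over all pairs of groups, correlations between samples with different numbers ran from -0.553 to 0.651. The genes described and the lists were chosen with earlier results of these data known. Named from each list were the most abundant gene and up to 5 called genes with the largest change, and the 3 genes most like each cytokine; the text gives part of them. Some near-identical genes (*Csf2rb* and *Csf2rb2*, *Ear1* and *Ear6*, *Tpsab1* and *Tpsb2*) may share counts. Some genes, among them *Il4ra*, *Il1rl1*, *Gata3*, *Rora*, *Il5ra*, *Sftpc* and *Scgb1a1*, stand in more than 1 of the 6 lists of genes and 10 of cell markers.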

Additional observations from a re-analysis of the deposited data

How the results depend on the processing

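Of the log2 fold changes of the 7 genes tested under all alternatives, 315 kept direction and side of the thresholds, 2 lost a call, 7 gained one and 7 changed sign. The 2 lost calls were those of *Il6* with limma on log2(FPKM + 1), given above. In IL-33 against PBS 3 genes were called under each alternative, except 4 without IL-33 replicate 3 (range 3 to 4 over single mice left out). In IL-33+LM8 against IL-33 limma on log2(FPKM + 1) called 0, dropping the minimum fold change called 2 by adding *Il5*, and leaving out single mice called 1 to 2, against 1. In IL-33+LM8 against PBS 3 to 5 were called with single mice left out and 2 with limma on log2(FPKM + 1), and 4, with *Il10*, with limma on log2(FPKM + 0.1) and with counts divided by 4. *Il10* has no value with a minimum mean FPKM of 0.5, and DESeq2 gave it no adjusted p in both comparisons with PBS. Sign changes, all in uncalled genes, were *Csf2* in IL-33 against PBS (-0.21 to 0.61 with single mice left out) and, between IL-33+LM8 and IL-33 mice, *Tslp* (-0.32 to 0.30) and *Il10* (-0.81 to 0.79, 0.16 with limma on log2(FPKM + 0.1), 0.51 with the replicate block). The cause was not tested. The replicate block changed no call of the 7 genes, and gave 3, 1 and 3 called; over all genes it gave 3103, 837 and 1716 against 3394, 1033 and 1478. Same-numbered mice correlated at -0.455 to 0.381 for PBS with IL-33 and -0.37 to 0.217 for IL-33 with IL-33+LM8. For these groups too, a shared number did not establish pairs. Over all genes limma on log2(FPKM + 1) called 1739 (1279 higher, 460 lower), 437 and 587 (507 higher, 80 lower), against 2140 higher and 1254 lower in the first and 1119 and 359 in the last comparison, and no minimum fold change gave 9412, 4309 and 4843. The shares left with LM8 ranged from 50.5% to 59.5% (*Il5*), 48.0% to 93.5% (*Il13*) and 35.1% to 45.7% (*Il6*) with single mice left out. Among other named genes, 2150 values kept direction and call and 70 lost the call, with 0 sign changes. Depth limits *Il9*, *Il10* and the PBS side of *Il13* and *Il5*.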
